A study of Canis lupus familiaris with 60 samples.

Results

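The comparison described here is between the skin of sensitized and of nonsensitized dogs at the site where house dust mite allergen had been applied 24 hr earlier. It rests on 11 of the 60 arrays of the series, chosen by time, treatment and group: 5 arrays of sensitized dogs and 6 of nonsensitized dogs, 1 array per dog. All dogs were Beagles aged 2 to 3 years, kept and fed alike. The sensitized dogs (2838, 2840, 2841, 2853 and 2855) had been made allergic to Dermatophagoides farinae by applying mites to the skin, and their labels give a positive intradermal test and raised specific IgE, so the group is a model of sensitization and not of spontaneous disease. The nonsensitized dogs (2704, 2716, 2800, 2802, 2845 and 2847) were not allergic. The 6 sensitized dogs comprised 4 males and 2 females and the 6 nonsensitized dogs 2 males and 4 females, so sex and sensitization were not balanced. Every site in the comparison carried 75 mg of mite paste on clipped skin under a bandage, and every biopsy was taken under local lidocaine. Allergen and saline sites of both groups had also been biopsied at 6 hr, when the bandages were changed. Each dog also gave a biopsy of a site patched with 50 µl of saline for 24 hr and of untreated skin at 0 hr, which serve as the background below. The 6th sensitized dog, 2839, was left out: its array (specimen 14) had been set aside in the study for its RNA integrity, low signal and poor correlation with the other arrays, and its values are given where they bear on a result.

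A patch test holds an allergen against intact skin so that it must cross the epidermis. In a sensitized animal, IgE on mast cells and Langerhans cells and memory T cells recognise the allergen, and keratinocytes, endothelium and macrophages respond with cytokines such as IL-6 and with chemokines that draw monocytes, neutrophils, eosinophils and T cells from the blood. IL-6 and oncostatin M act through the transcription factor STAT3, which switches on its own inhibitor SOCS3 and acute phase proteins. In allergic skin the terminal differentiation of keratinocytes, which builds the cornified envelope, is known to be impaired.

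The 11 arrays had median processed signals of 104.27 to 142.93, and 68.85% to 77.59% of their spots stood well above background, with none saturated. Signals of any 2 of the arrays correlated at 0.9695 to 0.9942. Specimen 14 had a median signal of 70.97 and 67.65% of spots well above background. All levels below are normalized signals on a log2 scale, and a difference is sensitized minus nonsensitized, so that 1 unit is a 2-fold change. The values come from whole skin, in which fewer cells of a type and less RNA per cell cannot be told apart.

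Slides and groups overlapped little, which bears on every result below. Slide 1 held 4 nonsensitized and no sensitized arrays, and slide 8 held 1 sensitized and no nonsensitized array. Slide 2 held 1 array of each group, and slide 3 held 3 sensitized arrays and 1 nonsensitized array. Only the 6 arrays on slides 2 and 3 therefore compare the groups within a slide, and a fit with slide as a block takes the difference from these alone. Scan sessions followed the slides: the first held 1 sensitized and 5 nonsensitized arrays, the second 3 and 1, and the third 1 and 0.

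Of 38862 identifiers tested, 2218 (5.71%) were DEG, that is, had 1 or more probes that changed 1.5-fold or more with a limma adjusted p under 0.05. They comprised 883 identifiers (2.27%) that were higher in the sensitized dogs and 1335 (3.44%) that were lower. The higher probes had a median difference of 0.78 and reached 3.17, and the lower ones had a median of -0.76 and reached -3.20, against a median of 0.02 over all 43494 probes tested. At least 4-fold differences were mostly upward, with 36 probes higher and 7 lower. The 2 groups of dogs did not overlap in 555 of the 934 probes called higher (59.4%) and in 875 of the 1399 called lower (62.5%), whereas 8.25% of all probes tested had groups that did not overlap, 3.94% with the sensitized dogs higher and 4.31% with them lower. At the saline sites of the same dogs 1 of 39551 identifiers (0.00253%) was DEG, and in untreated skin 0 of 40450 (0%) were by limma, with 8227 and 1461 identifiers at an unadjusted p below 0.05.

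With slide as a block, 389 identifiers (1.00%) were DEG, 253 (0.651%) higher and 136 (0.350%) lower, and 276 of the 2218 were called in the same direction in both fits. The sizes of the differences moved less than the calls. Probes called higher had a median of 0.74 with the slide block, 0.50 within slide 2 and 0.91 within slide 3. Probes called lower had medians of -0.68, -0.50 and -0.83. The direction was the same within both slides for 874 of the 934 higher probes (93.6%) and 1338 of the 1399 lower ones (95.6%), against 51.9% of all probes tested. These 6 arrays are also part of the main comparison, so the shares are a description and not a separate test.

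The count also depended on single dogs. It rose to 4026 without sensitized dog 2841, the only sensitized array on slide 2, and to 3594 without nonsensitized dog 2802, the only nonsensitized array on slide 3. Without sensitized dog 2855 it was 1298, and without nonsensitized dog 2800 it was 1474. Dog 2841 was the sensitized dog nearest to the nonsensitized ones in 41.0% of the higher probes and 45.5% of the lower ones. Dog 2855 was nearest in 3.5% and 2.8%. The part of the slide in these numbers was not tested.

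**Figure D1:**
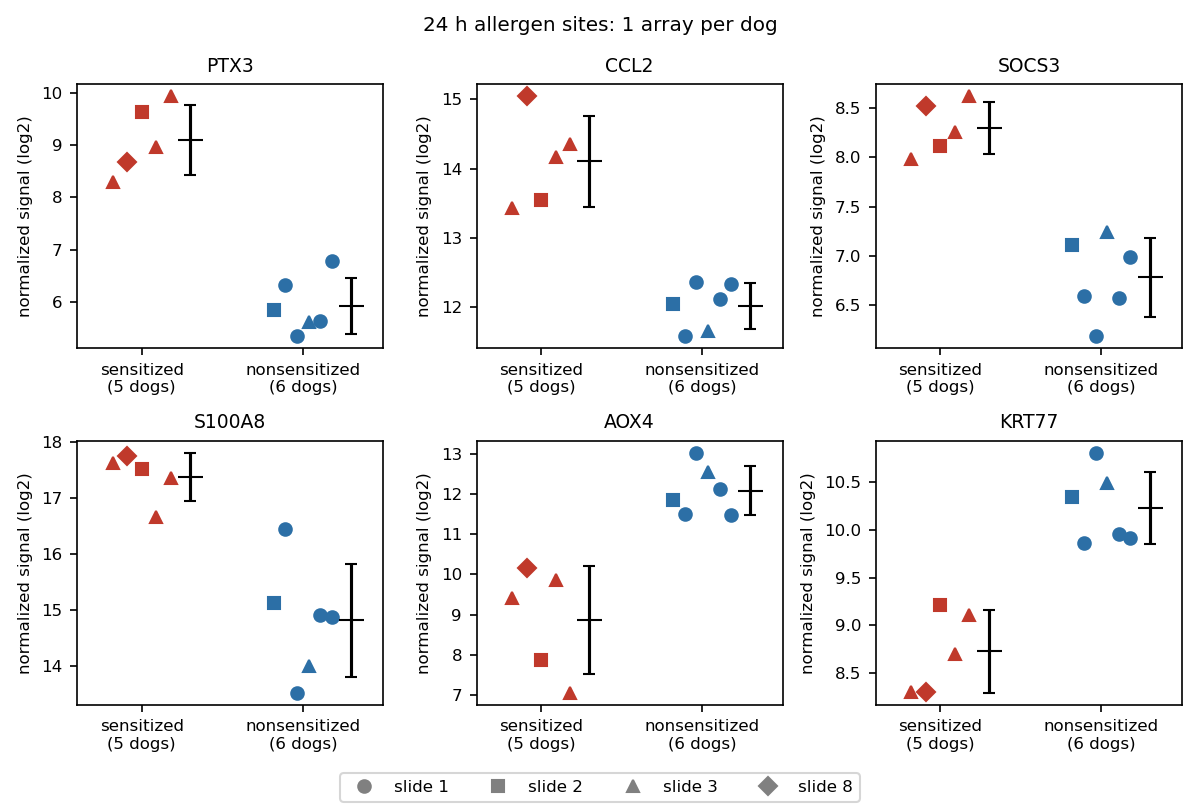
Normalized log2 signal (y axis) of 6 genes at the 24 hr allergen site, with 1 point per dog, its shape giving the slide, and the mean with SD beside each group. The groups do not overlap for any of the 6 genes: PTX3, CCL2, SOCS3 and S100A8 are higher and AOX4 and KRT77 lower in sensitized dogs.

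PTX3, CCL2 and SOCS3 were chosen as markers of the response. PTX3 is a long pentraxin, a soluble pattern receptor made by macrophages, endothelium and fibroblasts in inflamed tissue. Its level (identifier ENSCAFT00000014125) was 8.29, 8.67, 9.63, 8.96 and 9.93 in sensitized dogs 2838, 2840, 2841, 2853 and 2855. In the nonsensitized dogs it had a lowest, median and highest level of 5.34, 5.74 and 6.78. All 5 sensitized dogs lay above all 6 nonsensitized ones. The difference was 3.17 ± 0.32 (SE), or 9.00-fold (limma adjusted p = 0.000514). It was 3.57 with slide as a block (adjusted p = 0.0278), 3.77 within slide 2 and 3.44 within slide 3. Specimen 14 was at 6.61, inside the range of the nonsensitized dogs, and with it the difference was 2.81 (adjusted p = 0.00724).

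CCL2, the chemokine that attracts monocytes through CCR2, was bright in all dogs. Its levels (NM_001003297) were 13.43, 15.04, 13.54, 14.16 and 14.35 in the sensitized dogs in the same order, against 11.58, 12.08 and 12.36 as lowest, median and highest in the nonsensitized dogs. The groups did not overlap, and specimen 14, at 14.76, lay with the sensitized dogs. The difference was 2.09 ± 0.27 (SE), or 4.26-fold (limma adjusted p = 0.00168), and it was 2.00 with slide as a block (adjusted p = 0.0357). A second probe of the gene gave 2.12.

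SOCS3, which shuts off signalling of IL-6 family receptors, stood at 7.98, 8.52, 8.12, 8.26 and 8.62 in the sensitized dogs (ENSCAFT00000008545). The nonsensitized dogs ranged from 6.18 through a median of 6.79 to 7.24, again without overlap, and specimen 14 was at 8.22. The difference was 1.52 ± 0.19 (SE), or 2.87-fold (limma adjusted p = 0.00162). With slide as a block it was 1.03 and no longer passed (adjusted p = 0.0666), and the values within slides 2 and 3 were 1.01 and 1.05. A second, dimmer probe for SOCS3 gave 0.54 and was not called. All 3 markers remained DEG whichever of the 11 dogs was left out.

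Many of the genes called below carry a symbol only through the list of genes that the study called for the interaction of sensitization and allergen on these same arrays. Of the 404 tested genes named that way, 156 (38.6%) were higher and 109 (27.0%) lower here. Of the 851 named through the RefSeq table, 53 (6.23%) were higher and 29 (3.41%) lower. Members named through that list are not independent evidence of a direction. The others can be set beside the 6.23% and 3.41%. Lists and members were chosen with earlier results of these data known, so those counts are descriptions too.

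The group of pentraxins and acute phase proteins had 5 tested members with a median difference of 2.65, and 3 were higher. Beside PTX3 these were SERPINA3, an acute phase protease inhibitor, and TNFAIP6, a hyaluronan-binding protein induced by TNF and IL-1. SERPINA3 measured 10.04, 9.33, 10.24, 9.00 and 9.78 in the sensitized dogs and 6.44, 6.89 and 7.58 as lowest, median and highest in the others (difference 2.75 ± 0.25 SE, limma adjusted p = 0.000428). TNFAIP6 was 2.65 ± 0.28 higher (adjusted p = 0.000677). Both passed with slide as a block, at 3.21 and 1.99 (adjusted p = 0.0161 and 0.0278). Complement C3 (1.39, adjusted p = 0.0675) and the iron hormone HAMP (0.47) did not pass, and 4 of the 5 were named through the list of the study.

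In IL-6, oncostatin M and STAT3 signalling, 5 of 8 tested members were higher and none lower (median 0.79), 5 of the 8 named through that list. IL6, the ligand, was at 6.01, 7.00, 6.31, 7.51 and 8.26 in the sensitized dogs. In the nonsensitized dogs it was well above background on only 1 of 6 arrays, with a lowest, median and highest signal of 4.22, 4.63 and 4.99. The groups did not overlap, and the difference was 2.37 ± 0.34 (SE, limma adjusted p = 0.00297). IL6 entered the test only through its signal in the sensitized dogs, so these values are a description. The oncostatin M receptor OSMR rose by 0.92 ± 0.12 (adjusted p = 0.00175), and the transcription factor CEBPD, which IL-6 induces in acute phase responses, by 0.96 ± 0.13 (adjusted p = 0.00268). BCL3 was also higher (0.66). STAT3 itself differed by 0.55, with an adjusted p of 0.00524 but below the 1.5-fold limit, and LIFR (0.35) and PIM1 (0.31) were not called. With slide as a block, OSMR was the only 1 of the 5 still called (0.98, adjusted p = 0.0408), while IL6 was 2.36 (adjusted p = 0.0745).

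Chemokines formed the largest group. Of 23 tested, 12 were higher and none lower, with a median of 0.79. Of 16 with a RefSeq symbol 6 were higher, namely CCL2, CCL8, CCL17, CCL19, CCL20 and CXCL8. CCL8, which like CCL2 attracts monocytes and also eosinophils, was 10.34, 11.82, 9.79, 10.89 and 11.01 in the sensitized dogs and 7.85, 8.36 and 8.54 as lowest, median and highest in the others. It differed by 2.48 ± 0.29 (SE, limma adjusted p = 0.00126) and by 2.02 with slide as a block (adjusted p = 0.0356). CCL20, the ligand of CCR6 on Th17 cells and dendritic cells, differed by 2.40 ± 0.32 (adjusted p = 0.00188) without overlap of the groups, and by 2.08 with slide as a block (adjusted p = 0.0788).

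CCL17 binds CCR4 on Th2 cells and is raised in the blood of people with atopic dermatitis. It varied widely among the sensitized dogs, at 11.36, 10.41, 10.30, 13.80 and 12.37, and from 7.59 through 9.15 to 10.67 in the nonsensitized dogs. The groups overlapped, since sensitized dogs 2840 and 2841 were below the highest nonsensitized dog. Dog 2853, the highest, was also high in untreated skin (10.78, against 6.96 to 7.36 in the other sensitized dogs) and at its saline site (11.36, against 7.92 to 8.64). The difference was 2.69 ± 0.67 (SE, limma adjusted p = 0.0258). It was 0.93 within slide 2 and 3.03 within slide 3, and with slide as a block 2.19 (adjusted p = 0.247). It remained called in 7 of the 11 fits that left out a dog. The other Th2-related genes were few. IL31, the itch cytokine, was well above background in all 5 sensitized and in 1 of 6 nonsensitized dogs. It was higher by 0.83 ± 0.20 (adjusted p = 0.0203), a description, since it entered the test only through the sensitized dogs. The decoy receptor IL13RA2 was higher by 1.49 ± 0.35 (adjusted p = 0.0194). IL13 itself, at 1.16, did not pass (adjusted p = 0.114). GATA3, the transcription factor of Th2 cells that keratinocytes also express, differed by -0.79 (adjusted p = 0.0199). With slide as a block none of CCL17, IL31, IL13RA2 and GATA3 was called.

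The chemokines named through the list of the study that passed were CCL3, CCL4, CCL13, CXCL1, CXCL6 and CXCL16. The neutrophil attractant CXCL6 was not well above background in any nonsensitized dog and was at least 3.73-fold higher in the sensitized dogs (limma adjusted p = 0.000514). CXCL6 entered the test only through its signal in the sensitized dogs, so its calls are a description. The homeostatic skin chemokines CCL21 (-0.10), CCL27 (-0.06), CCL28 (0.27) and CXCL12 (0.29) were not called, nor were the T cell attractant CCL5 (0.47), the eosinophil attractant CCL24 (0.09) and the interferon-induced CXCL10 (0.79, adjusted p = 0.0505). With slide as a block 5 of the 23 were called: CCL2, CCL4, CCL8, CXCL6 and CXCL16. The chemokine receptors CCR1 (0.59) and CCR3 (0.70) were higher, and neither passed with the slide block.

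**Figure D2:**
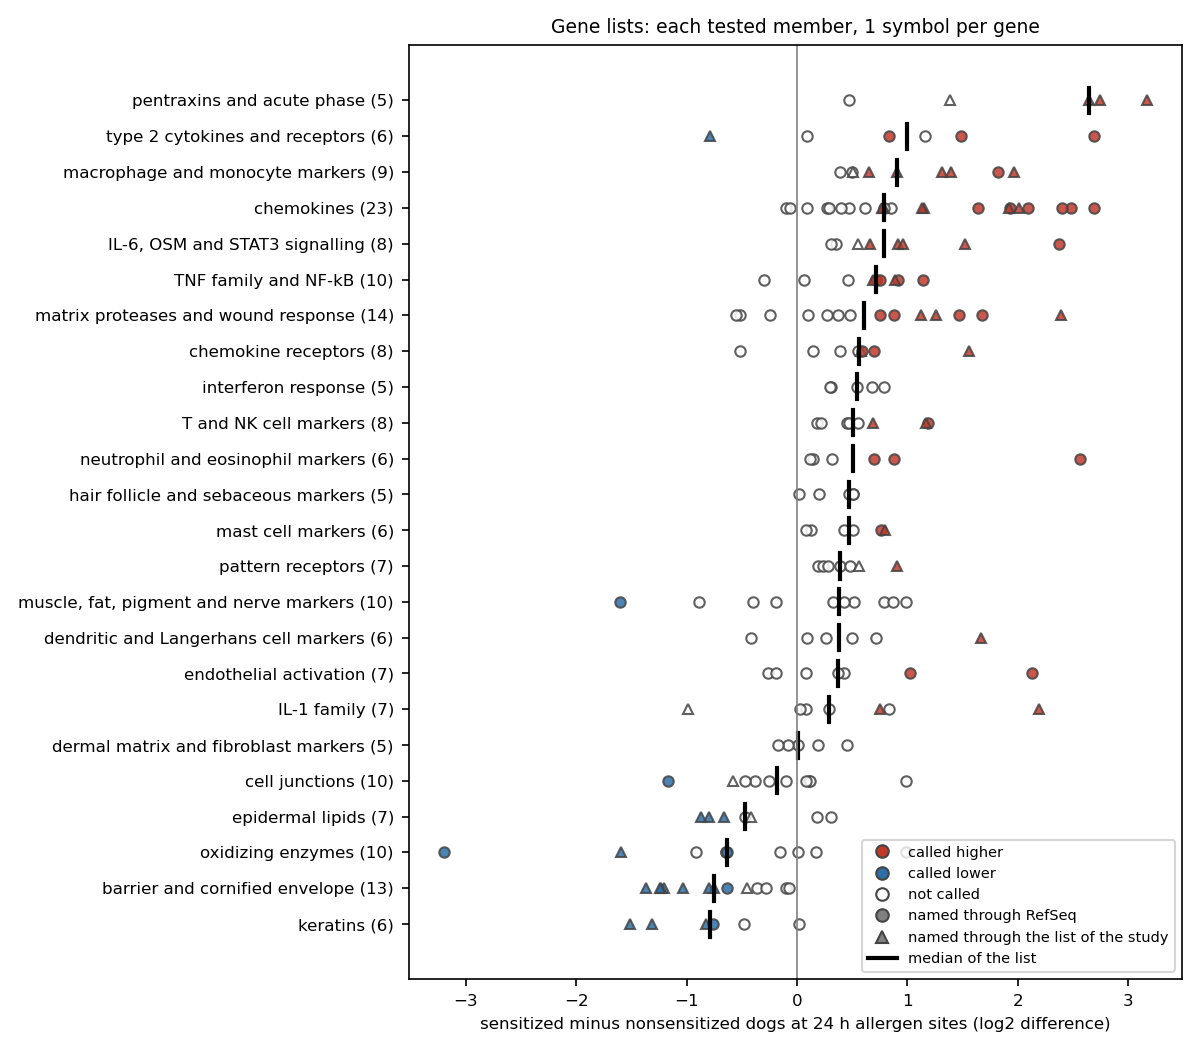
Difference between sensitized and nonsensitized dogs at 24 hr allergen sites (log2, x axis) for each tested member of the gene lists with at least 5 members (number in brackets), the black bar marking the median. The pentraxin and acute phase list has the highest median, 2.65, and the keratin list the lowest, -0.79. Triangles mark genes named only through the list of the study, which are 4 of 5 and 3 of 6 members of these lists. Their members with a RefSeq symbol have medians of 0.47 (1 gene) and -0.48. By RefSeq-named members alone, type 2 genes are highest (1.16) and oxidizing enzymes lowest (-0.63).

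In the list of TNF family and NF-kB genes 6 of 10 were higher and none lower (median 0.72), and 4 of these were among the 8 whose symbol came from the RefSeq table. They were LTB (1.14), CD40LG (0.75), TNFSF13B (0.72) and ADORA2B (0.92), while TNF differed by 0.46, below the limit. ADORA2B is an adenosine receptor and no member of the TNF family, although the list counts it. None of these 4 was called with slide as a block (adjusted p = 0.0683 to 0.462), and LTB was -0.19 within slide 2. In the IL-1 family, IL18BP, which neutralises IL-18, stood apart. It was 2.19 ± 0.19 (SE) higher (limma adjusted p = 0.000395), and 2.04 with slide as a block (adjusted p = 0.0278). NLRP3 was higher by 0.75 but was not called with slide as a block. Both were named through the list of the study, and of the 4 members with a RefSeq symbol none was called: IL1A (0.08), IL1RN (0.03), IL18 (0.29) and IL33 (0.83, adjusted p = 0.225). IL37, a cytokine that dampens inflammation, was the lowest of the family at -0.99 (adjusted p = 0.0924). None of 5 interferon response genes passed, although all 5 differences were positive (0.30 to 0.79).

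Markers of immune cells were higher or not called, and none was called lower. Of 9 macrophage and monocyte markers 6 were higher (median 0.91, 6 of the 9 named through the list of the study). Their summed log2 level was 82.3 to 90.6 in the sensitized dogs and 73.8 to 80.9 in the nonsensitized dogs, which did not overlap. The 6 members named through that list enter this sum, so it is a description. Of the 3 with a RefSeq symbol FCGR1A alone was called. CHI3L1, a chitinase-like protein of activated macrophages, differed by 1.97 ± 0.20 (SE, limma adjusted p = 0.000514), and by 2.36 with slide as a block (adjusted p = 0.0078). The Fc receptor FCGR1A differed by 1.82 ± 0.27 (adjusted p = 0.00323), and by 1.94 with slide as a block (adjusted p = 0.0614), but the scavenger receptor CD163 by only 0.39 (adjusted p = 0.345).

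Of 6 neutrophil and eosinophil markers, all named through RefSeq, 3 were higher. S100A8, a subunit of calprotectin made by neutrophils and by stressed keratinocytes, was 17.62, 17.74, 17.51, 16.65 and 17.35 in the sensitized dogs. The nonsensitized dogs ranged from 13.53 through 14.89 to 16.45, below all of the former. The difference was 2.56 ± 0.42 (limma adjusted p = 0.00466), and 2.88 with slide as a block (adjusted p = 0.0696). MMP9 (0.88) and CCR3 (0.70) were also called, but the granule genes ELANE (0.32) and CAMP (0.12) and the receptor CXCR2 (0.15) were not. The summed level of the list did not overlap (49.8 to 50.4 against 43.1 to 47.1).

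Of 8 T and NK cell markers, CTLA4 (1.19), ICOS (1.17) and LCK (0.69) were called higher, the first pair of them marking activated T cells. ICOS and LCK were named through the list of the study, and of the 6 with a RefSeq symbol CTLA4 alone was called. Their groups overlapped, and with slide as a block none was called (adjusted p = 0.0614, 0.0918 and 0.101). CD4 (0.45) and CD8A (0.47) were not called, and the summed levels were 49.8 to 57.0 in sensitized and 46.5 to 49.1 in nonsensitized dogs. Of 6 mast cell markers FCER1G (0.76) and, named through the list of the study, HDC (0.80) passed, while the defining genes KIT (0.13) and CMA1 (0.08) did not, and summed levels overlapped (49.4 to 56.0 against 48.2 to 51.9). With slide as a block neither FCER1G nor HDC was called, and within slide 2 the sign of HDC was the opposite, at -0.35. In the dendritic cell list BATF3, named through the list of the study, alone was called (1.67 ± 0.18 SE, limma adjusted p = 0.000816), and it passed with slide as a block (1.49, adjusted p = 0.0461). The part of these cell types in the gene differences above was not tested.

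In the vessel wall, the endothelial adhesion molecules SELE (2.13 ± 0.30 SE, limma adjusted p = 0.00299) and ICAM1 (1.02 ± 0.16, adjusted p = 0.00435) were higher, though neither was called with slide as a block (2.03 and 0.84, adjusted p = 0.0696 and 0.115). VCAM1 (0.43) and the endothelial identity genes VWF (0.08), KDR (0.37) and CD34 (-0.26) were not called. Of 14 matrix protease and wound response genes 7 were higher, among them the aggrecanase ADAMTS4 (2.39 ± 0.36, adjusted p = 0.00332), the protease inhibitor TIMP1 (1.68 ± 0.24, adjusted p = 0.0031) and ADAMTS5 (1.26). Of the 11 with a RefSeq symbol 4 were higher, and the ADAMTS genes were named through the list of the study. Of the 7, only ADAMTS1 was called with slide as a block, and these 3 had adjusted p values of 0.0628, 0.0763 and 0.0583. None of 5 dermal matrix and fibroblast genes was called, with COL1A1 at 0.01, COL1A2 at -0.08 and DCN at -0.17. The median of that list was 0.01. None of 4 reference genes was called either, and they ran from -0.26 for GUSB to 0.36 for ACTB.

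SDSL, which encodes a serine dehydratase-like enzyme, was among the 10 largest increases although it was in none of the lists. It was 8.41, 8.46, 8.75, 7.22 and 8.04 in the sensitized dogs, and 4.91, 5.61 and 6.56 as lowest, median and highest in the others. It differed by 2.53 ± 0.31 (SE, limma adjusted p = 0.00142) and by 2.71 with slide as a block (adjusted p = 0.037). Of the probes without a symbol the largest increases were TC59367 (3.17, adjusted p = 0.00811) and XM_849764.1 (3.17, adjusted p = 0.0268), and the largest decreases were ENSCAFT00000003764 (-2.18, adjusted p = 0.0303) and TC73147 (-2.10, adjusted p = 0.00447). Of these 4 only TC73147 was called with slide as a block (-2.92, adjusted p = 0.0123). ENSCAFT00000003764 was -0.66 with it (adjusted p = 0.204), its groups overlapped, and it differed by -1.71 at saline sites.

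**Figure D3:**
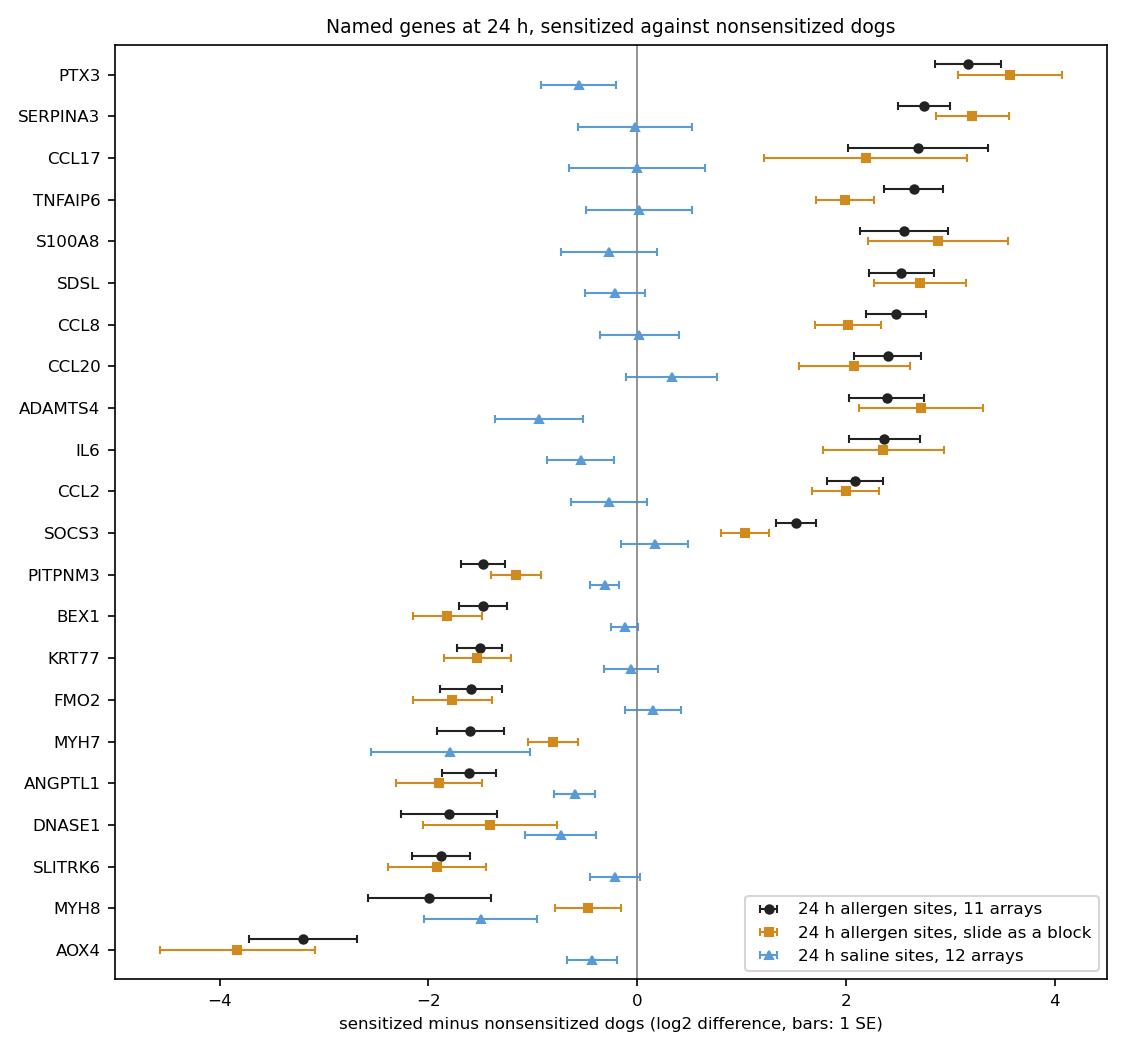
Difference between sensitized and nonsensitized dogs (log2, x axis, bars 1 SE) for PTX3, CCL2, SOCS3 and the 10 largest increases and decreases among named DEG. Circles are the 24 hr allergen sites, squares the same arrays with slide as a block and triangles the 24 hr saline sites, where MYH7 and MYH8 are the only genes with differences beyond 1 in size (-1.79 and -1.50). For MYH7 the saline site of nonsensitized dog 2845 was at 11.83, against 6.13 to 8.43 in the other nonsensitized dogs.

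Several genes of the epidermis were lower in the sensitized dogs, mostly of the barrier and keratin lists. Of 13 tested genes of the barrier and cornified envelope 8 were lower and none higher (median -0.75), though 8 of the 13 were named through the list of the study and of the other 5 only SPINK5 passed. KPRP, a keratinocyte proline-rich protein, was 2.59-fold lower (-1.37 ± 0.20 SE, limma adjusted p = 0.0031). The protease ASPRV1, which processes filaggrin, differed by -1.24, loricrin (LORICRIN), the main envelope protein, by -1.23 ± 0.25 (adjusted p = 0.0118) and the filaggrin relative FLG2 by -1.20 ± 0.26 (adjusted p = 0.0158). TGM1, KLK5, KLK14 and KRTDAP (-0.36, -0.28, -0.10 and -0.07) were not called. The summed level was 155.2 to 159.1 in sensitized and 164.0 to 170.9 in nonsensitized dogs. It includes the 8 members named through the list of the study, so it is a description. With slide as a block none of the 13 was called, and loricrin was -0.26 within slide 2 and -1.77 within slide 3.

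Of 6 keratins 4 were lower, 3 of them (KRT13, KRT15 and KRT77) named through the list of the study, and of the 3 with a RefSeq symbol KRT2 alone was lower. KRT77, a keratin of eccrine sweat ducts and of suprabasal skin, was 8.30, 8.30, 9.21, 8.70 and 9.11 in the sensitized dogs and 9.86, 10.16 and 10.81 as lowest, median and highest in the nonsensitized dogs. Its groups did not overlap (difference -1.51 ± 0.22 SE, limma adjusted p = 0.00311), and with slide as a block it was -1.53 (adjusted p = 0.0589). KRT13 (-1.31 ± 0.16, adjusted p = 0.00143) was the keratin that passed with the slide block (-1.38, adjusted p = 0.0357). The basal keratin KRT15 (-0.82) and the suprabasal KRT2 (-0.76) were also lower, while KRT1, the main suprabasal keratin, was not called (-0.48, adjusted p = 0.063). Of 10 junction genes only cingulin (CGN), of tight junctions, was called, at -1.17 ± 0.14 (adjusted p = 0.00128), and at -0.96 with slide as a block (adjusted p = 0.0241). Occludin (OCLN, -0.47) and desmoplakin (DSP, -0.58) had adjusted p values of 0.0192 and 0.0174 but stayed below the 1.5-fold limit. GJB2, at 0.99, was not called either. Of the 10 junction genes 4 had a positive difference, and the median was -0.18. In epidermal lipid metabolism ASAH2 (-0.87), ALOXE3 (-0.80) and PPARA (-0.66) were lower among 7 genes, and none with the slide block. All 3 were named through the list of the study, and none of the 3 members with a RefSeq symbol was called (median 0.18).

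The largest decrease of all was that of AOX4 (NM_001044749), an aldehyde oxidase. Its level was 9.42, 10.16, 7.87, 9.86 and 7.07 in the sensitized dogs and had a lowest, median and highest value of 11.47, 11.97 and 13.02 in the nonsensitized dogs. The groups did not overlap. The difference was -3.20 ± 0.52 (SE), 9.19-fold lower (limma adjusted p = 0.00456). It was -3.83 with slide as a block, where it just missed the threshold (adjusted p = 0.0526), -3.96 within slide 2 and -3.74 within slide 3. Of 10 tested oxidizing enzymes FMO2, named through the list of the study (-1.59 ± 0.30, adjusted p = 0.00861) and catalase (CAT, -0.63, adjusted p = 0.00279) were lower as well. Catalase was also called with the slide block (-0.69, adjusted p = 0.0297). The other 7 were not called, among them CYP1A2 (-0.91), AOX2 (-0.64) and CYP1B1 (0.99). Of the 10 differences 3 were positive.

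The other large decreases were of mixed function. The neuronal transmembrane gene SLITRK6 differed by -1.88 ± 0.28 (SE, limma adjusted p = 0.0035), the angiopoietin-like ANGPTL1 by -1.61 ± 0.26 (adjusted p = 0.00443), the lipid transfer protein gene PITPNM3 by -1.48 ± 0.21 (adjusted p = 0.0031) and BEX1 by -1.48 ± 0.23 (adjusted p = 0.00368), without overlap of the groups. BEX1 also passed with slide as a block (-1.82, adjusted p = 0.0468). DNASE1 (-1.80) was called in 7 of the 11 fits without a dog, and it was -0.22 within slide 2 and -2.20 within slide 3.

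MYH8 and MYH7 are myosin heavy chains of muscle. MYH8 was 5.38, 5.81, 8.71, 5.86 and 5.65 in the sensitized dogs, the high value being that of dog 2841 on slide 2. In the nonsensitized dogs it was 6.50 in dog 2802 on slide 3 and 7.99 to 9.08 in the 5 others, on slides 1 and 2. Its difference of -1.99 ± 0.59 (SE, limma adjusted p = 0.0486) became -0.47 with slide as a block (adjusted p = 0.439) and 0.13 within slide 2. Over the 23 arrays at 24 hr, saline sites included, MYH8 ranged from 7.73 to 9.15 on the 8 arrays of slide 1 and had a median of 6.05 on the 8 arrays of slide 3, where 1 saline site of a sensitized dog reached 8.09. On slide 2 the saline sites were at 6.01 in both sensitized dogs and at 7.94 and 9.21 in the nonsensitized dogs. On slide 3 they were at 6.01, 8.09 and 6.24 in sensitized dogs and at 6.09 in the nonsensitized dog. MYH7 was -1.60 (adjusted p = 0.0114) and -0.81 with slide as a block (adjusted p = 0.108). Whether the probes tell these closely related myosins apart was not tested. MYH8 remained called in only 2 of the 11 fits that left out a dog.

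**Figure D4:**
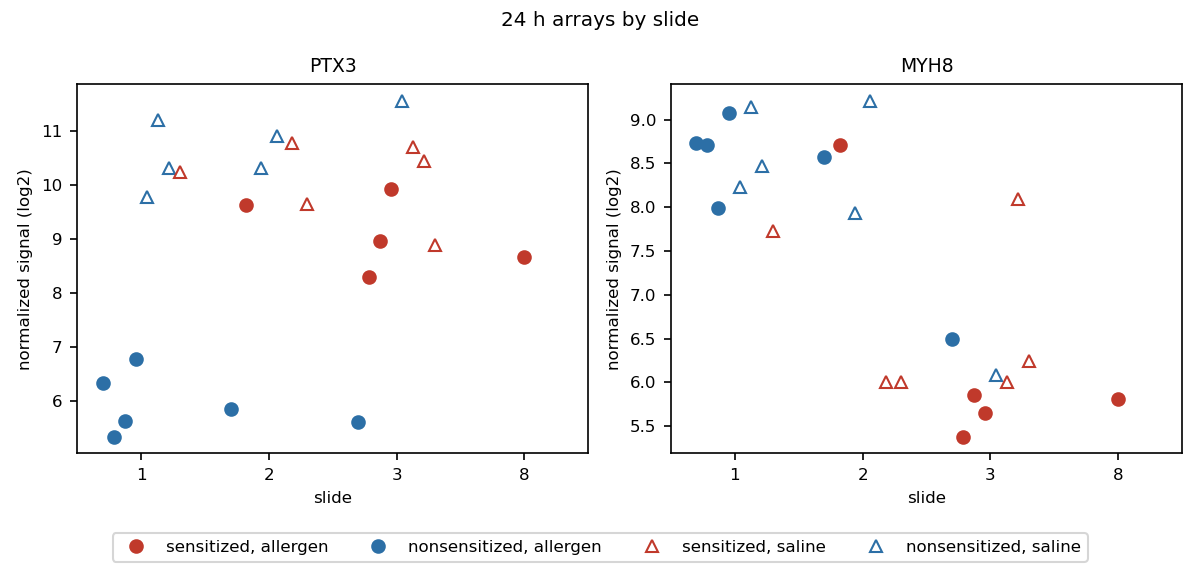
Normalized log2 signal (y axis) of PTX3 and MYH8 on the 23 arrays at 24 hr, by slide (x axis), filled circles for allergen sites and open triangles for saline sites, red for sensitized and blue for nonsensitized dogs. PTX3 separates the groups at allergen sites within slides 2 and 3, whereas MYH8 is at 7.73 or more on all arrays of slide 1 and mostly lower on slide 3.

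The saline sites and the untreated skin of the same dogs give levels to set beside each difference. PTX3 was high at saline sites of both groups, at 10.12 ± 0.73 in sensitized and 10.68 ± 0.66 in nonsensitized dogs (SD, n = 6 each), and low in untreated skin, at 5.35 ± 0.12 and 5.37 ± 0.29. At allergen sites it was 9.09 ± 0.67 (SD, n = 5) in the sensitized dogs, which differed by -1.02 from their saline sites. In the nonsensitized dogs it was 5.92 ± 0.53 (SD, n = 6), which differed by -4.75 from theirs and was close to untreated skin. On slide 1 alone, the 4 allergen sites of nonsensitized dogs were at 5.34 to 6.78 and the 3 saline sites at 9.78 to 11.20. Of the 4 kinds of site at 24 hr, the allergen site of the nonsensitized dogs was the one with low PTX3.

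For other inflammatory genes too, the allergen site of the nonsensitized dogs had the lowest mean of the 4 kinds of site at 24 hr. In sensitized dogs the group means of the 2 sites were within 0.5 of each other for CCL2 (0.15), SOCS3 (0.00), TNFAIP6 (0.09), CCL8 (0.26), IL6 (0.39) and ADAMTS4 (0.36), as allergen minus saline. In nonsensitized dogs these values were -2.21, -1.35, -2.54, -2.20, -2.52 and -2.98. Since both sites came from the same dogs, the difference can also be taken within each dog. It was below 0 in 6 of 6 nonsensitized dogs for each of these genes and for PTX3. Within the sensitized dogs it had no common sign. CCL2 differed by -1.20, 0.94, -0.04, -0.21 and 1.90 in dogs 2838, 2840, 2841, 2853 and 2855, and IL6 by -1.24, 0.82, -0.51, 0.27 and 2.93. Dog 2855 had the highest difference of the 5 for both, and it was also the only one with PTX3 above its saline site (1.05, against -1.95 to -0.97 in the others). Its saline site had the lowest level of the sensitized dogs for CCL2 (12.45), IL6 (5.33) and PTX3 (8.88). At the allergen site its CCL2, at 14.35, was below that of dog 2840 (15.04). For a second set the mean of the sensitized dogs was well above that of their saline sites. CCL17 was 2.87 above the saline site in sensitized and 0.18 above it in nonsensitized dogs, S100A8 2.44 above and -0.39, SDSL 2.36 above and -0.38, and CCL20 1.44 above and -0.62. SERPINA3, SELE and IL18BP lay between, at 1.53, 1.53 and 1.46 in sensitized and -1.24, -0.94 and -0.92 in nonsensitized dogs. Within dogs, CCL17 lay above the saline site by 2.26 to 3.73 in the 5 sensitized dogs, S100A8 by 1.36 to 3.52 and SDSL by 1.13 to 3.15. These differences were not tested within a group.

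**Figure D5:**
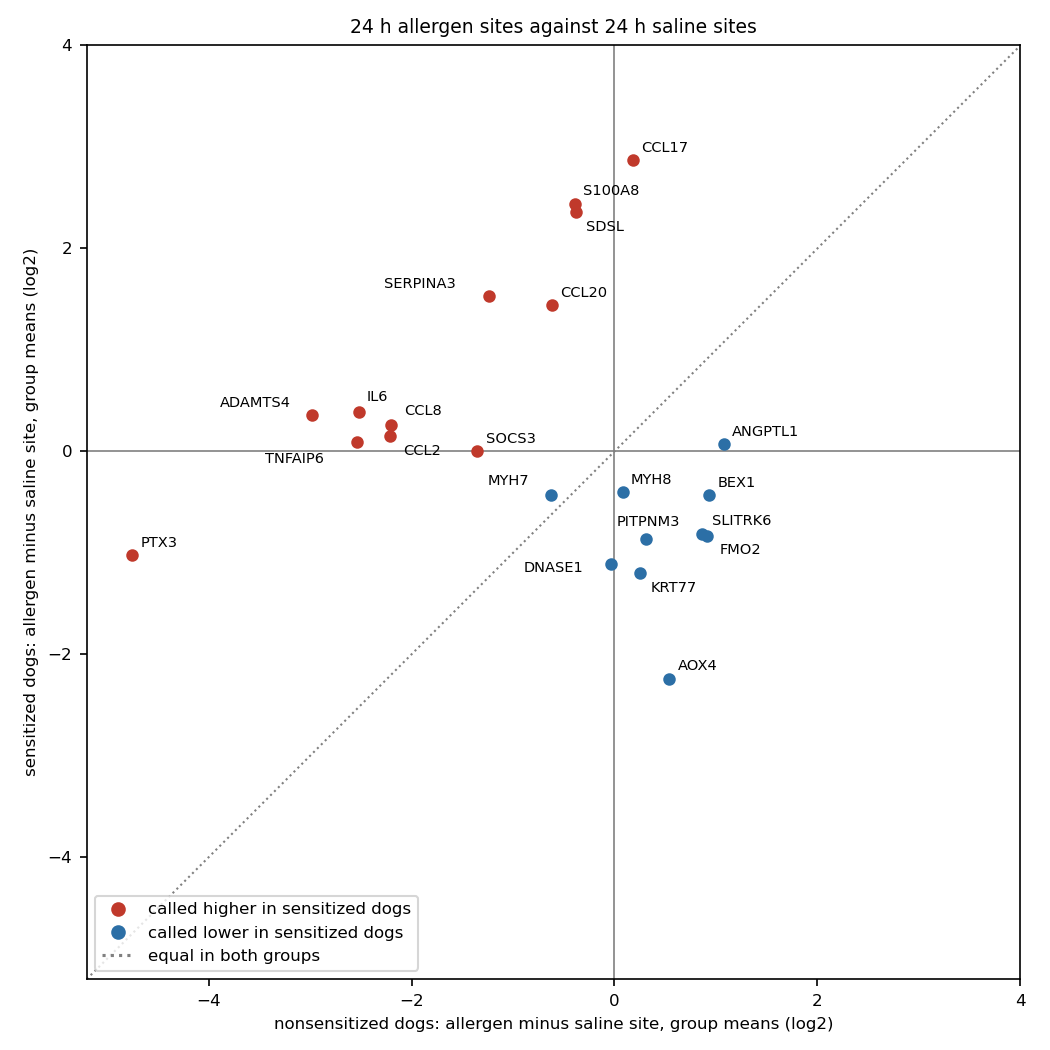
Allergen minus saline site at 24 hr (log2, group means) in nonsensitized dogs (x axis) and sensitized dogs (y axis) for the same 22 genes. PTX3, CCL2, SOCS3, TNFAIP6, CCL8, IL6 and ADAMTS4 lie to the left near or below the horizontal zero line, whereas CCL17, S100A8 and SDSL lie high near the vertical one.

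For some of the decreases, allergen minus saline was below 0 in the sensitized dogs and above it in the others. In the sensitized dogs it was -1.32 for loricrin, -1.23 for FLG2, -1.12 for KPRP, -1.20 for KRT77 and -2.24 for AOX4. In the nonsensitized dogs the corresponding values were 0.08, 0.17, 0.30, 0.25 and 0.54. BEX1, SLITRK6, FMO2 and ANGPTL1 differed on both sides or mainly in the nonsensitized dogs (0.93, 0.86, 0.91 and 1.08 above their saline sites, against -0.43, -0.81, -0.83 and 0.07 in the sensitized dogs). Over all probes called higher, the median of allergen minus saline was 0.26 in sensitized and -0.40 in nonsensitized dogs, and over those called lower it was -0.27 and 0.24, against 0.00 and 0.01 over all probes tested. Choosing probes by the allergen sites alone pushes these medians apart, so they are a description.

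Differences between the groups were also taken at saline sites and in untreated skin. The probes called higher had a median difference of 0.05 at saline sites and 0.04 in untreated skin. Those called lower had medians of -0.26 and -0.08, against -0.01 and 0.00 over all probes. A joint fit of 59 arrays called 1087 identifiers at saline sites, where the separate fit called 1. The test of whether allergen minus saline differed between the groups at 24 hr (23 arrays) called 347 of 39884 identifiers (0.870%). It gave PTX3 3.73 ± 0.51 (SE, limma adjusted p = 0.00528), CCL2 2.36 ± 0.48 (adjusted p = 0.0244), IL6 2.90 ± 0.49 (adjusted p = 0.0153) and AOX4 -2.77 ± 0.60 (adjusted p = 0.0293). It gave SOCS3 1.35 ± 0.40 (adjusted p = 0.0938), CCL20 2.07 ± 0.59 (adjusted p = 0.0824) and CCL17 2.68 ± 1.00 (adjusted p = 0.199), which did not pass. On most allergen arrays of nonsensitized dogs IL6 was not well above background, so the size of its value is uncertain. With each dog as a block, CCL17 passed (2.59, adjusted p = 0.0406) and SERPINA3 went from an adjusted p of 0.0451 to 0.0585. For MYH7 the value was 0.19 (adjusted p = 0.981). It includes the saline site of nonsensitized dog 2845, at 11.83 against 6.13 to 8.43 in the other nonsensitized dogs.

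Specimen 14, which took no part in the comparison, lay above every nonsensitized array for 67.9% of the probes called higher and below every one for 83.8% of those called lower. Over all probes tested the shares were 35.8% and 41.9%, and this array stood apart from the rest in general. With it as a 6th sensitized array, 1932 identifiers were DEG, 717 higher and 1215 lower.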

How the data were processed

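Labelled RNA of 60 skin biopsies was hybridized to one-colour Agilent canine arrays. The authors read them with Agilent Feature Extraction (10.7.3.1 in the submitters' processing notes), and per the file headers the deposited intensity is the processed signal after background subtraction, unscaled between arrays (annotation build canFam2). For this comparison, flagged outlier spots were set missing (1286 values on the 11 arrays), and a spot was kept if 5 arrays of either group had it well above background (44715 of 61657 noncontrol spots, 43494 probes, 38862 identifiers). Variance stabilization (vsn's model, reimplemented, fitted on 59 arrays) gave log2 values, which were averaged per probe. Groups were compared without pairing (5 against 6 arrays) in limma 3.58.1 under R 4.3.3, which had 9 degrees of freedom from the residuals and 3.58 from the prior, and p was adjusted by Benjamini-Hochberg over all probes. With 1 array per dog, the number of arrays limits the precision.

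A gene was represented by its brightest tested probe. Of 54633 identifiers, 1592 had a symbol, 1072 through the RefSeq table (assembly UU_Cfam_GSD_1.0) and 520 through the list of genes the study called on these arrays. File coordinates were not used, since the table is of another build. Named genes are PTX3, CCL2, SOCS3, the 10 largest named increases and decreases, up to 4 members of each list and those needed for a count, with up to 2 unnamed identifiers per direction. Members and lists were chosen with earlier results of these data known. Lists are described by counts and medians, without a test. The further lists tested were pattern receptors (7 members, CD14 higher), B and plasma cells (XBP1, not called), hair follicle and sebaceous genes (5, none called), muscle, fat, pigment and nerve genes (10, MYH7 lower), stress genes (3, HSPA5 higher), proliferation (BIRC5, not called) and sex-linked genes (KDM6A, not called). Animal numbers mark the same dog at all sites. After removal of group means, same-dog allergen and saline arrays correlated at 0.060 to 0.751. The procedure was tested on simulated data. Python 3.11.15 with pandas 2.3.3, numpy 2.4.6 and matplotlib 3.10.9 served for tables and figures. Alternatives were other scalings, filters, thresholds, weights, slide or scan session as a block, a joint fit, and each dog left out. Clinical scores, qPCR and the authors' fold changes were not used, and some list members are not reported here.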

Additional observations from a re-analysis of the deposited data

Results flagged for a closer look

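In 13 of the 22 genes named as markers or as largest changes, the difference between allergen and saline sites at 24 hr itself differed between sensitized and nonsensitized dogs (limma interaction, adjusted p below 0.05, log2 scale). The interaction was positive for PTX3 (3.73), ADAMTS4 (3.34), IL6 (2.90), S100A8 (2.83), SERPINA3 (2.77), SDSL (2.74), TNFAIP6 (2.63), CCL8 (2.46) and CCL2 (2.36). It was negative for AOX4 (-2.77), SLITRK6 (-1.67), BEX1 (-1.36) and PITPNM3 (-1.17). Most of the 22 genes were picked for a large difference on the same allergen arrays, so the count of 13 is no separate evidence; over all identifiers tested 347 of 39884 (0.870%) were called. With dog as a block SERPINA3 was no longer called (adjusted p = 0.0585).

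One array lay far from the others of its group for 2 of these genes. MYH8 was at 8.71 in sensitized dog 2841, whose array was on slide 2, against 5.38 to 5.86 in the 4 other sensitized dogs. SLITRK6 was at 6.68 in sensitized dog 2855, against 7.78 to 8.11 in the others. Of 44 sets of values screened in this way, chance alone gives about 1 in 20.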

How the results depend on the processing

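Of the 84 called genes that were named or listed, all chosen as called on these arrays, 22 stayed called with slide as a block and 62 did not. For 3, the sign within slide 2 was the opposite (HDC -0.35, LTB -0.19, MYH8 0.13), where each group had 1 array. A further 37 values within slide 2 and 20 within slide 3 kept their sign but moved by at least the SD of the more variable group. With 1 dog left out, 825 values kept the call and 99 lost it. With scaling to the 75th percentile 81 stayed called, with specimen 14 added 77.

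In place of 2218 DEG (883 higher, 1335 lower) there were 389 with slide as a fixed block (253 and 136), 1548 with slide as a random block (652 and 896) and 1605 with scan session as a block (859 and 746). Array weights gave 4031 (2292 and 1741), and 4348 with specimen 14 included (2471 and 1880). The joint fit of 59 arrays gave 3141 (1570 and 1572), and 3360 with dog as a random block (1699 and 1662). Unscaled series values gave 586 higher, and normexp with quantile scaling 1477 in all and 486 higher. Without a fold limit there were 4647 (2106 and 2541), at an unadjusted p below 0.05, a rule added after seeing the data, 12839 (6797 and 6060), and in a limma test against 1.5-fold itself (treat) 22 (21 and 1). Leaving out 1 dog gave 1298 to 4026 (539 to 2137 higher, 759 to 1891 lower), with counts beyond 1.5 times for 2841 (4026), 2802 (3594), 2855 (1298) and 2800 (1474). The cause was not tested.

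At saline sites the count of 1 became 0 with the 75th percentile, 139 at an unadjusted p below 0.002 with 1.5-fold, 8227 at a p below 0.05 and 1087 in the joint fit. In untreated skin the count of 0 became 29, 1461 and 1 under the last 3 of these. For the interaction, 347 became 229, 695 and 5625 under the first 3, 127 with specimen 14, and 409 with the dog as replicate block, which pairs the sites of a dog. Allergen sites of different dogs cannot be paired. The number of arrays, and the 6 arrays that share a slide with the other group, limit the precision.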
